A study of Mus musculus with 6 samples.

Results

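The genes described here sense nucleic acids inside cells, relay that signal to interferon and NF-kB, or are switched on by interferon. They are 39 of the 22380 genes listed. Of these, 37 were listed by function, and Wdfy1 and Tbkbp1 were selected on their rise in these libraries, so their rise is a description only. Bulk RNA-seq was done on mouse embryonic stem cells (mESC), 3 lines of each group. Both groups carried CreERT2, a Cre recombinase that enters the nucleus when tamoxifen is given, at one allele (wt/ki), and the Gt(ROSA)26Sor tm1Ytchn reporter, also wt/ki, which makes a green H2B-EGFP protein once Cre has cut it. Tet iTKO lines also carried Tet1/2/3fl/fl, loxP-flanked alleles of the genes for the TET enzymes, which oxidize 5-methylcytosine. Ctrl lines had no floxed Tet allele. Lines of both groups received 1 µM tamoxifen for 2.5 days, grew on without it for 4 days, and were analysed on day 6.5. They were kept in 2i medium, which holds mESC in the ground state, with the cytokine LIF, on mouse embryonic fibroblast feeders. Live CD326+ GFP+ Thy1.2- cells were sorted. The gate keeps only cells in which Cre had acted on the reporter, and CreERT2 was present in the controls as well.

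In the known pathway, RIG-I (Ddx58) and MDA5 (Ifih1) bind viral or misplaced double-stranded RNA in the cytosol and signal through MAVS, while TLR3 binds it in endosomes and signals through TRIF (Ticam1). Both routes recruit TRAF ligases and the kinases TBK1 and IKKε, which activate IRF3 and IRF7 to switch on interferon, and they free NF-kB from its inhibitor. Secreted interferon then acts through its receptor and STAT2 with IRF9 to induce effector genes such as Isg15, the Ifit genes and Rsad2. Pluripotent cells are known for a weak interferon response.

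Values are read counts per gene that the authors divided by a DESeq2 size factor for each library, called normalized counts below. This does not make the totals equal. Totals per line ran from 3964824 to 4219665, and 13431 to 13539 genes were above 0 in Ctrl lines against 14024 to 14363 in Tet iTKO lines. Tet1 was at 696, 682 and 716 in Ctrl lines and 787, 895 and 753 in Tet iTKO lines, Tet2 at 249, 170 and 230 against 233, 268 and 211, and Tet3 at 28, 13 and 13 against 10, 3 and 3. A whole-gene value does not isolate the floxed exons and so does not check the deletion. The paper reports that reads from the floxed parts of Tet1, Tet2 and Tet3 were lost after tamoxifen. It also reports that TET1 and TET2 protein could not be detected. The mESC markers were high in every line, with a sum over 9 genes of 17142, 17588 and 17266 in Ctrl and 16329, 16077 and 16647 in Tet iTKO. Of the 9, Pou5f1 (-0.29), Nanog (-0.30) and Zfp42 (-0.35) were called lower on the log2 scale (33.3%, against 18.4% of all genes tested). Esrrb (0.28), Klf4 (0.32) and Epcam (0.45) were called higher (33.3%, against 16.4%). After the correction for GC content and length described below, only Pou5f1 and Epcam of these kept their calls. Tfcp2l1 was then called lower and Tdgf1 higher. The summed level of 12 feeder fibroblast markers was 306, 297 and 297 in Ctrl against 562, 495 and 593 in Tet iTKO. Of the 5 tested, Col1a1, Col1a2, Col3a1 and Fbln2 were called higher (80%, against 16.4% of all genes tested). Fbln2 overlapped between the groups. After the same correction Col1a2 and Col3a1 stayed called (adjusted p = 0.024 and 0.0054, limma). Col1a1 (0.27, adjusted p = 0.11) and Fbln2 (0.67, adjusted p = 0.26) did not. Pdgfra, Lum and Dcn stayed at 15 or below in every line. Thy1, the marker used to sort feeders away, was at 30, 46 and 41 against 47, 35 and 23. The 10 macrophage and leukocyte markers summed to 595, 626 and 727 against 571, 487 and 487, most of it Laptm5, with Ptprc and Csf1r at 0 in every line. Of the 2 tested, Laptm5 was called lower (50%, against 18.4% of all genes tested), at -0.40 (adjusted p = 0.00065, limma). It was at -0.63 after the same correction, and Cd68 was not called. Lyz2, below the filter of a mean of 10, was at 4, 2 and 5 against 9, 8 and 10. The part of either cell type in the results below was not tested. In bulk RNA, fewer cells of a type and less RNA per cell cannot be told apart.

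Mavs, Tank, Traf3, Rela and Adar were higher in Tet iTKO and Ddx58, Irf1 and Ifitm2 were lower, while Isg15, Usp18, Ifit2, Ifit3 and Rsad2, which interferon induces, were near 0 in both groups. Of the 37 genes listed by function, 24 reached the filter, a mean of 10 over the lines, and were tested, and 13 were below it. By limma on log2 (normalized count + 1), with p-values adjusted over all 10524 genes tested, 5 of the 24 were called higher in Tet iTKO (20.8%, against 16.4% of all genes tested), and 3 were called lower (12.5%, against 18.4% of all genes). Both shares are near those of all genes. The 2 groups did not overlap for 13 of the 24 (54.2%, against 44.1% of all genes tested). Their median log2 fold change was 0.00, beside 0.012 over all genes tested, with a range from -0.59 to 1.05. In the whole table, the log2 fold change went with GC content (Spearman coefficient 0.258 across 10457 genes, which share libraries and are not independent) and with transcript length (0.293). A correction of each library for both left 9.67% of all genes higher and 19.7% lower, and 4 and 3 of the 24 members. It ended the calls of Adar, Rela and Traf3 and added Nfkb1 and Ifitm3 as higher. With a robust form of the same correction, of degree 2, 12.6% of all genes were higher and 13.5% lower, with 5 and 2 members, so the excess of lower calls depended on the form.

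**Figure D1:**
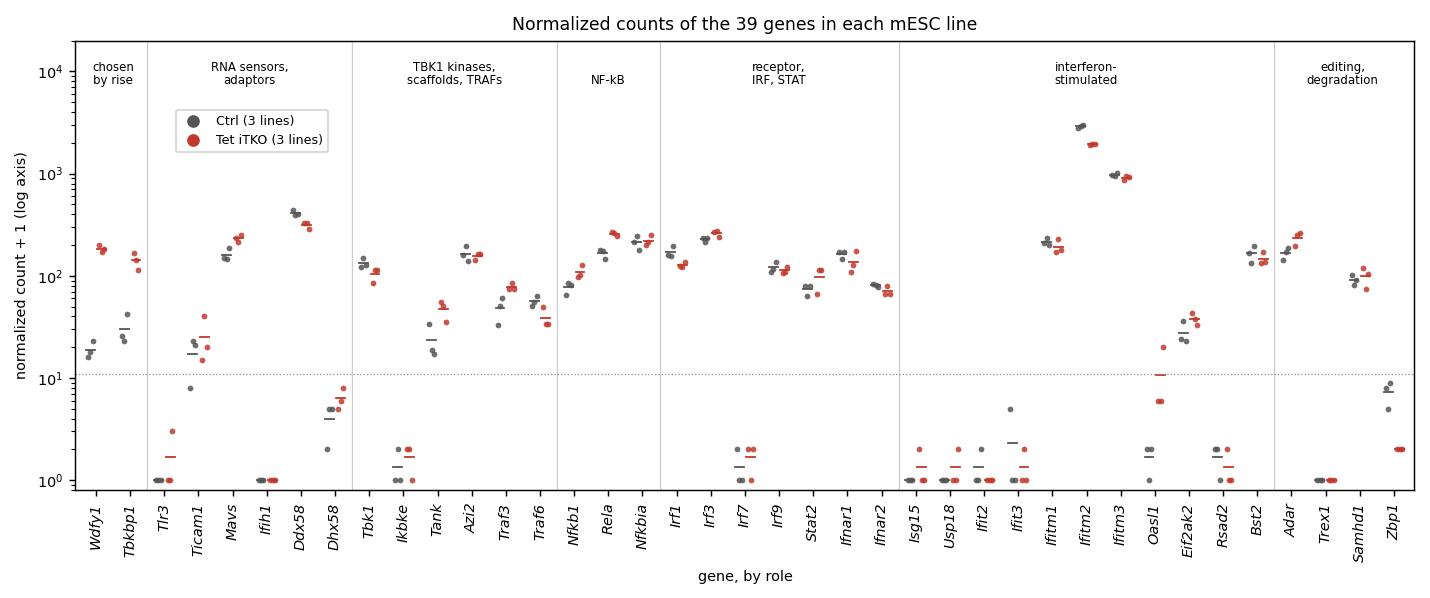
Normalized count plus 1 (log axis) of each of the 39 genes, grouped by role, in the 3 Ctrl lines (grey) and the 3 Tet iTKO lines (red), with a short bar at each group's mean. The dotted line marks the mean of 10 used as the filter. Ifitm2 was the highest gene, and Isg15, Usp18, Ifit2, Ifit3 and Rsad2 lay near the bottom of the axis in both groups.

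**Figure D2:**
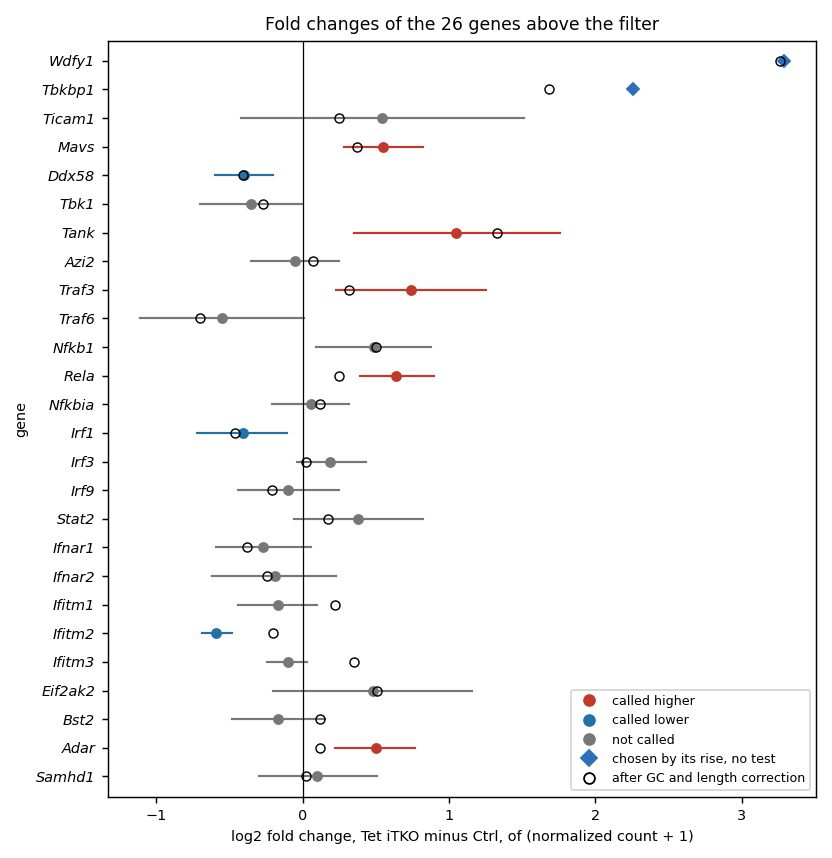
Log2 fold change (Tet iTKO minus Ctrl) of the 26 genes above the filter, with 95% intervals for the 24 listed by function. Open circles give the value after correction for GC content and length, which moved Rela from 0.64 to 0.25 and Ifitm3 from -0.10 to 0.35. Diamonds are the genes chosen by their rise, shown without a test.

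The interferon-stimulated response element, to which STAT2 with IRF9 and the IRF factors bind, has a core of GAAA, 2 free bases and GAAA. RefSeq (GRCm38.p6) gave promoters, from 250 bases before to 50 after the start, for 34 of the 39 genes, and Wdfy1 was not among them. The core stood on either strand in 10 of the 44 member promoters (22.7%) and in 3.44% of all 32851 promoters of this length. The windows below lie upstream of the start of genes at high (Ifitm2), middling (Stat2, Bst2) and near-zero levels (Isg15, Rsad2), and show that the core occurs at each. They are read on the strand of the gene, with the core in capitals, and overlapping cores run together.

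Ifitm2: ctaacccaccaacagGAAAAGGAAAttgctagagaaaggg

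Isg15: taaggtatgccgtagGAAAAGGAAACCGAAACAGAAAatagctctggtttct

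Rsad2: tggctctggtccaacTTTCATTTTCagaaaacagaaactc

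Stat2: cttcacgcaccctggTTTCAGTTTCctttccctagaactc

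Bst2: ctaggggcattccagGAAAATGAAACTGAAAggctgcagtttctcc

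The Ifitm2 window is chr7:140955983-140956022 on the minus strand, that of Isg15 chr4:156200860-156200911 on the minus strand, and that of Rsad2 chr12:26456548-26456587 on the minus strand. The Stat2 window is chr10:128270261-128270300 on the plus strand and the Bst2 window chr8:71537572-71537617 on the minus strand. Where the core reads TTTC it lies on the other strand. Of the 10 genes with a core in the promoter, 6 were tested and 4 were below the filter, and of the 6 none was called higher and 2 (Ddx58 and Ifitm2) were called lower. Of the 23 genes listed by function with a promoter and no core, 17 were tested, of which 5 were called higher and 1 lower. Over all genes tested 16.4% were higher and 18.4% lower, and with so few genes nothing is read from these counts about the motif. A match is a string in a window and does not show that a factor bound there.

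Wdfy1, whose product binds TLR3 and helps recruit its adaptor TRIF, was at 15, 17 and 22 normalized counts in Ctrl lines and at 198, 169 and 181 in Tet iTKO lines. It was low in each control and high in each Tet iTKO line, a log2 fold change of 3.29, and it ranked 1 by rise among 7819 genes with a mean of at least 50. Tbkbp1, which encodes a scaffold that binds TBK1, was at 25, 22 and 41 against 168, 143 and 112. Its log2 fold change was 2.26, rank 5 in the same order, and after the GC and length correction it was 1.68. Both genes were chosen by this rise, so these values and ranks describe the choice. They reached the mean of 50 only through the Tet iTKO lines, with means of 183 and 141 there against 18 and 29.3 in Ctrl. Mrpl44, which overlaps 1.94% of the exon bases of Wdfy1 on the opposite strand, was at 178, 237 and 216 against 118, 133 and 156, and the libraries do not keep strand.

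**Figure D3:**
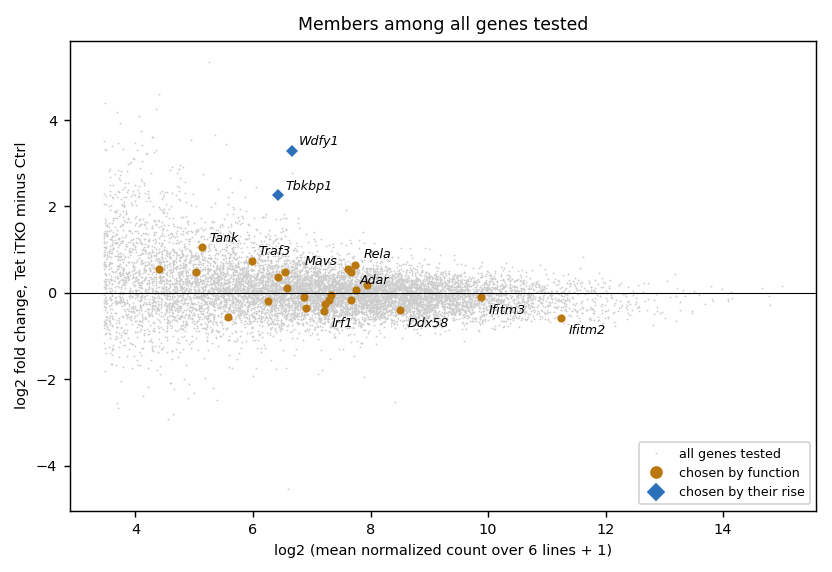
Log2 fold change against log2 mean normalized count (plus 1) for all 10524 genes tested (grey), with the 24 members chosen by function as circles and the pair chosen by their rise as diamonds. Wdfy1 and Tbkbp1 lie above the other members, at 3.29 and 2.26, and the remaining members lie between -0.59 and 1.05.

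Among the RNA sensors and their adaptors, 3 genes were tested. Of these, 1 rose (33.3%, against 16.4% of all genes tested) and 1 fell (33.3%, against 18.4%). Mavs, the mitochondrial adaptor of the RIG-I-like receptors, was at 147, 144 and 186 in Ctrl and 234, 215 and 248 in Tet iTKO. The groups did not overlap, and the gene rose by 0.55 ± 0.13 on the log2 scale (SE, adjusted p = 0.0014, limma). Ddx58 (RIG-I), the cytosolic sensor of RNA with a 5′ triphosphate, was at 442, 395 and 404 against 328, 326 and 285. All the Tet iTKO lines lay below all the controls, with a log2 fold change of -0.40 ± 0.10 (SE, adjusted p = 0.0015, limma). Both calls held in each fit that left out a line and after the GC and length correction, where Mavs was at 0.37. Ticam1 (TRIF) was low and scattered, at 7, 22 and 20 against 14, 39 and 19, and was not called (adjusted p = 0.41). Ifih1 (MDA5) was listed at 0 in every line, Tlr3 had 2 normalized counts in a single Tet iTKO line, and Dhx58 (LGP2), a regulator of both sensors, lay between 1 and 7.

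Of the kinases, scaffolds and ligases at the next step, 5 were tested. Tank and Traf3 were called higher (40%, against 16.4% of all genes tested) and none was called lower (against 18.4%). Tank, a scaffold of TBK1 and IKKε, was at 33, 18 and 16 in Ctrl and at 54, 50 and 34 in Tet iTKO, and the nearest lines of the groups differed by 1 normalized count. Its log2 fold change was 1.05 ± 0.35 (SE, adjusted p = 0.017, limma). The call was lost without Ctrl replicate 2 (0.053) or 3 (0.061) and without Tet iTKO replicate 1 (0.092) or 2 (0.079), in adjusted p. Traf3, a ubiquitin ligase that links the adaptors to TBK1, was at 32, 50 and 59 against 74, 84 and 73. It was higher in each Tet iTKO line, by 0.74 ± 0.25 (SE, adjusted p = 0.019, limma), but without Ctrl replicate 1 the value was 0.49 (adjusted p = 0.13) and without Tet iTKO replicate 2 it was 0.68 (0.086). After the GC and length correction Traf3 was at 0.32 (adjusted p = 0.36). Tbk1, the kinase itself, was at 121, 147 and 128 against 84, 114 and 114, and its interval for the log2 fold change ran from -0.70 to 0.00 (adjusted p = 0.12). Traf6, the ligase that feeds NF-kB, was at 50, 54 and 62 against 48, 33 and 33 (adjusted p = 0.12). For both, the Tet iTKO lines lay below the controls without passing the threshold. Traf6 was called lower in 1 of 18 alternatives, quantile normalization (-0.74, adjusted p = 0.037, limma). Azi2, another TBK1 scaffold, had values of 139 to 195 in Ctrl and 143 to 164 in Tet iTKO, and Ikbke (IKKε) was at 0 or 1 in every line.

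In the NF-kB group, 3 genes were tested. Rela was called higher (33.3%, against 16.4% of all genes tested) and Nfkb1 was just outside the threshold. Rela, which encodes the p65 subunit, was at 178, 175 and 144 in Ctrl and 267, 262 and 246 in Tet iTKO. The groups stood well apart, with a log2 fold change of 0.64 ± 0.13 (SE, adjusted p = 0.00012, limma), and the call held in all 6 fits that left out a line. After the GC and length correction Rela was at 0.25 and was not called (adjusted p = 0.15). The robust form of degree 2 kept the call, at 0.39 (adjusted p = 0.02). The other form of degree 2 did not (0.24, adjusted p = 0.18), so the call depended on the form of the correction. Nfkb1, the p105 and p50 subunit, was at 64, 85 and 81 against 97, 100 and 126, a log2 fold change of 0.49 (adjusted p = 0.052), and it was called in 7 of 19 alternatives, among them every form of the GC and length correction (0.50 to 0.54) and the fit without Ctrl replicate 2 (0.56, adjusted p = 0.046). Nfkbia, the inhibitor IκBα and itself an NF-kB target, was at 214, 244 and 178 against 199, 212 and 248, and its interval of -0.21 to 0.32 spanned 0.

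Of the interferon receptor, IRF and STAT genes, 6 were tested and only Irf1 was called, as lower (16.7%, against 18.4% of all genes tested). None was called higher (against 16.4%). Irf1, an interferon-induced transcription factor, was at 158, 154 and 195 in Ctrl and at 123, 120 and 135 in Tet iTKO. The lines did not overlap, and the log2 fold change was -0.41 ± 0.15 (SE, adjusted p = 0.031, limma). The call was lost without Ctrl replicate 3 (adjusted p = 0.17) and without Tet iTKO replicate 1 (0.071) or 2 (0.096). Irf3, the factor that TBK1 phosphorylates, was at 235, 212 and 236 against 270, 272 and 239 (adjusted p = 0.21). Its relative Irf7 did not exceed 1 in any line. Stat2, at 78, 62 and 78 against 65, 114 and 113, and Irf9, at 108, 116 and 137 against 105, 109 and 122, were measured in every line and not called, with adjusted p of 0.18 and 0.69. The receptor subunits Ifnar1 and Ifnar2 were also not called, at log2 fold changes of -0.27 (interval -0.59 to 0.06) and -0.19 (interval -0.62 to 0.23). Stat2 was called higher without Tet iTKO replicate 1 (0.64, adjusted p = 0.025), and Ifnar1 lower without Tet iTKO replicate 3 (-0.46, adjusted p = 0.046).

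The interferon-stimulated effectors ranged from the highest of these genes to several near 0. Per kilobase of transcript, Ifitm2 was the highest of these genes in Ctrl, at 4445 normalized counts per kilobase, followed by Ifitm3 at 1445, Ifitm1 at 243 and Bst2 at 208. These genes encode small membrane proteins that block virus entry and, for Bst2 (tetherin), virus release. Ifitm2 was at 2793, 2958 and 2983 in Ctrl and at 1928, 1932 and 1957 in Tet iTKO. It fell in each Tet iTKO line, with a log2 fold change of -0.59 ± 0.05 (SE, adjusted p = 1.9e-11, limma), and after the GC and length correction it was at -0.20 (adjusted p = 0.003). Ifitm3 was at 965, 956 and 1018 against 875, 938 and 921 (adjusted p = 0.24), and Ifitm1 at 208, 235 and 199 against 171, 226 and 177 (adjusted p = 0.35). The direction of Ifitm3 turned after the correction, to 0.35 (adjusted p = 6.3e-05), and that of Ifitm1 turned to 0.22 (adjusted p = 0.23). Ifitm2 made up 70.4%, 71.3% and 71% of the 3 Ifitm genes together in Ctrl and 64.8%, 62.4% and 64.1% in Tet iTKO. The shares did not overlap (two-sided exact permutation p = 0.1, the smallest that 3 against 3 lines can give). They restate the fall of Ifitm2 beside the other Ifitm genes and are no separate support for it. Of the 50-base windows of Ifitm2, 48.5% also occur in another annotated gene, most in Gm45717, which overlaps 40.9% of its exon bases on the same strand, so reads of these genes cannot be fully told apart.

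**Figure D4:**
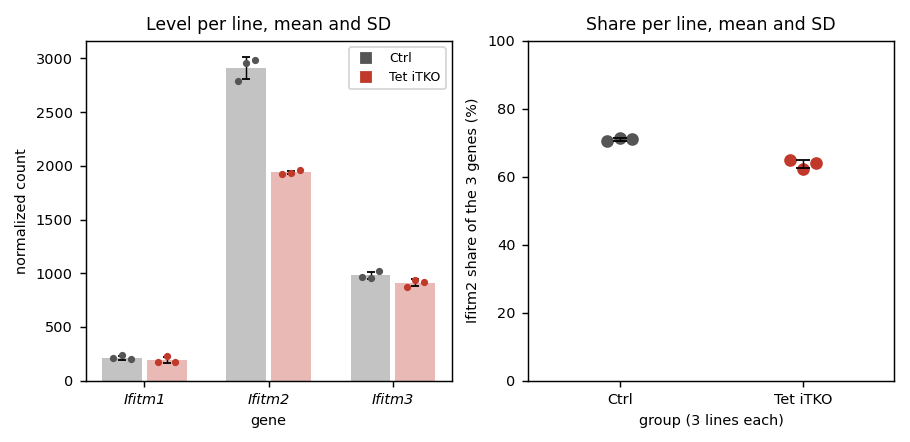
Left, normalized counts of Ifitm1, Ifitm2 and Ifitm3 in the 3 Ctrl (grey) and 3 Tet iTKO (red) lines, bars at the mean with SD. Right, the share of Ifitm2 in the sum of the 3 genes, with mean and SD, which was 70.9% in Ctrl and 63.8% in Tet iTKO.

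5 of the 11 effectors, Isg15, Usp18, Ifit2, Ifit3 and Rsad2, were near 0 in both groups. Isg15, a ubiquitin-like protein that interferon induces strongly, had 1 normalized count in one Tet iTKO line and 0 elsewhere, Usp18 the same, Ifit2 1 in one Ctrl line, and Rsad2 (viperin) at most 1 in any line. Ifit3 had 4 in one Ctrl line and at most 1 in the others, and 51.2% of its windows are shared with Ifit3b. Of the 39 genes, 9 did not exceed 3 in any line, with sums over these 9 of 2, 2 and 1 in Ctrl and 4, 1 and 4 in Tet iTKO. A difference at this level was not detectable. Oasl1, a 2′-5′ oligoadenylate synthetase-like gene, was at 1, 0 and 1 against 5, 5 and 19, with no overlap and 1 line far above the other two, and it was below the filter and not tested in the main fit. Eif2ak2, which encodes the RNA-dependent kinase PKR, was at 23, 35 and 22 against 42, 37 and 32 (adjusted p = 0.28), and Bst2 at 167, 133 and 195 against 132, 169 and 137 (adjusted p = 0.44).

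Among the genes that edit or degrade nucleic acids, Adar, which converts adenosine to inosine in double-stranded RNA, was at 142, 172 and 186 in Ctrl and 196, 250 and 261 in Tet iTKO. The lines did not overlap, and it rose by 0.50 ± 0.14 on the log2 scale (SE, adjusted p = 0.0046, limma). After the GC and length correction it was at 0.12 (adjusted p = 0.55). Of its exon bases, 16.8% lie opposite Chrnb2, which was at 1 to 9 in every line. Samhd1, which degrades deoxynucleotides, was at 100, 81 and 90 against 119, 73 and 104 (adjusted p = 0.73). Zbp1, a sensor of Z-form nucleic acid, was at 7, 4 and 8 against 1, 1 and 1, below the filter, and every Tet iTKO line lay below every control. Trex1, the cytosolic DNA exonuclease, was listed at 0 in every line, but all its exon bases lie in exons of Atrip on the same strand, which was at 147, 117 and 133 against 150, 130 and 152, so this 0 cannot be read as absence.

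A further 108 genes of the same pathways, also chosen by function, gave 65 tested, with 11 higher (16.9%, against 16.4% of all genes tested) and 5 lower (7.69%, against 18.4%) and a median log2 fold change of -0.01. Under the GC and length correction 7 of the 65 were higher and 11 lower, beside 9.67% and 19.7% of all genes. The robust form of degree 2 gave 9 and 9, beside 12.6% and 13.5%, so the small number of falls depended on the correction. Of 10 Toll-like receptor and adaptor genes tested, 3 were called higher (30%, against 16.4% of all genes tested) and none lower (against 18.4%). Unc93b1, which carries endosomal Toll-like receptors to their compartment, was at 10, 7 and 15 against 32, 48 and 31. It rose by 1.73 ± 0.43 (SE, adjusted p = 0.0016, limma). Tirap, an adaptor beside Myd88, was at 17, 22 and 43 against 52, 63 and 78 and rose by 1.29 (adjusted p = 0.0015). Tollip rose by 0.33 (adjusted p = 0.047), while Myd88 was not called (adjusted p = 0.77). Of 14 RNA sensor cofactors tested, 3 were called higher (21.4%, against 16.4% of all genes tested) and none lower (against 18.4%). Tradd rose by 0.87, Optn by 0.57 and Ddx3x by 0.26 (adjusted p = 0.019, 0.041 and 0.009). Of 12 further NF-kB genes tested, 1 was called higher (8.33%) and none lower, against the same shares. This was Tnip1, which rose by 0.44 (adjusted p = 0.03). After the GC and length correction Tollip, Optn and Tnip1 were no longer called (adjusted p = 0.19, 0.054 and 0.75). The values were then 0.24 for Tollip and 0.08 for Tnip1, while Optn stayed at 0.55 and was called in both degree 2 forms of the correction (adjusted p = 0.047 and 0.025). Several of these calls lay near the threshold. The call of Tollip was lost without any one line other than Ctrl replicate 3 and Optn without any one other than Ctrl replicate 2, with adjusted p up to 0.16 and 0.11 and log2 fold changes of 0.28 to 0.37 and 0.49 to 0.65. Tnip1 was lost without Ctrl replicate 1 or Tet iTKO replicate 1 or 3 (up to 0.16), Tradd without Ctrl replicate 3 or Tet iTKO replicate 2 or 3 (up to 0.066), and Ddx3x without Ctrl replicate 3 (0.058).

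Of 12 DNA sensing genes, 8 were tested, of which 2 were called lower (25%, against 18.4% of all genes tested) and none higher (against 16.4%). Rnaseh2a, the catalytic subunit of RNase H2, which removes ribonucleotides from DNA, was at 871, 766 and 734 against 605, 605 and 599 and fell by 0.39 on the log2 scale (adjusted p = 0.00015). Rnaseh2b, a second subunit, was at 513, 472 and 476 against 253, 403 and 334 and fell by 0.58 (adjusted p = 7.9e-05). The DNA sensor gene Cgas lay between 3 and 12 in every line, and Tmem173, which encodes STING, between 2 and 16, both below the filter.

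Of 16 interferon signalling genes, 11 were tested, of which 2 rose (18.2%, against 16.4% of all genes tested) and 3 fell (27.3%, against 18.4%). Ifnb1, the gene of interferon beta, was listed at 0 in every line. Jak1 and Tyk2, the receptor's kinases, were not called (adjusted p = 0.6 and 0.61), and Tyk2 was called lower after the GC and length correction, at -0.60 (adjusted p = 0.0066). Among feedback regulators, the directions differed. Socs1 was at 23, 23 and 22 against 89, 42 and 49 and rose by 1.29 (adjusted p = 0.0017). Socs3, which restrains signalling through STAT3, was at 706, 713 and 700 against 480, 489 and 592 and fell by 0.45 (adjusted p = 5.7e-05), and Stat3 itself fell by 0.37 (adjusted p = 0.0031). After the GC and length correction these were -0.79 and -0.72. The medium of both groups held LIF, and the signal behind these falls was not tested. The phosphatase gene Ptpn2 fell by 0.46 (adjusted p = 0.0086) and Pias1 rose by 0.47 (adjusted p = 0.044), and neither was called after the correction, where Ptpn2 was at -0.20 (adjusted p = 0.3) and Pias1 stayed at 0.46 (adjusted p = 0.055). Ptpn2 was also lost without Ctrl replicate 3 (0.087), and Pias1 without Ctrl replicate 1 or 3 or Tet iTKO replicate 1 or 3 (up to 0.16). Of 35 further interferon-stimulated genes, 10 were tested, of which 2 rose (20%, against 16.4% of all genes tested) and none fell (against 18.4%). Pml, which organizes nuclear bodies, was at 754, 706 and 744 against 1154, 1037 and 1109, up by 0.58 (adjusted p = 2e-08), and by 0.22 after the correction (0.015). Dtx3l, a ubiquitin ligase, was at 42, 58 and 33 against 103, 84 and 93, up by 1.09 (adjusted p = 0.00046). Ifit1 did not exceed 2 in any line.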

How the data were processed

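The authors sorted the cells, made Smart-Seq2 libraries, which do not keep strand, read 50 bases from each end, aligned with STAR (unique alignments, build mm9 in the submitters' processing notes), counted with HTSeq 0.7.1 with its strand option on and deposited counts divided by DESeq2 1.26.0 size factors and rounded. These deposited values are treated as a normalized score, not as raw counts, so raw depth is not known and no count model was fitted. Lines came from separate embryos. Here, genes with a mean of at least 10 over 6 lines were fitted with limma 3.58.1 (R 4.3.3) on log2 (value + 1), with a trend in variance, two-sided, and Benjamini-Hochberg adjustment over all 10524 genes, called under 0.05. Names, length, GC content and overlaps came from GENCODE M21 (GRCm38). The members and lists were chosen with earlier results of these data known. The fit was tested on simulated data. Alternatives were 2 other pseudocounts, other filters, scalings, a replicate block, a minimum fold and leaving out each line. The loess correction for GC content and length (span 0.3) was planned without a set form. Its degree and family were chosen after the main results were known, and 3 forms were tried. A robust form was for a time preferred, partly because its counts lay nearer to those of an earlier analysis of these data. The first form run, least squares of degree 1, is the one used, and the counts of calls under all 3 are given. Named genes were all members and, of the other pathway genes, up to 3 rises and 3 falls per functional group, called and not overlapping, with 8 fixed names, of which 1 is not reported here.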

Additional observations from a re-analysis of the deposited data

How the results depend on the processing

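Members called higher numbered 3 under quantile normalization and 2 without a trend in variance, against 5 (both lost Tank and Traf3, and the second also Adar and the fall of Irf1), and 1 rather than 3 was lower with a minimum log2 fold of 0.5. Quantile normalization gave 4 members lower, adding Traf6. Leaving out each line gave 3 to 5 higher and 2 to 4 lower. Other pathway genes called higher were 7 with a mean of at least 50, 6 without trend, 7 with a minimum fold, 7 under the GC and length correction (6 with the replicate block as well), and 6 to 11 when a line was left out. Those called lower were 2 without trend, 1 with a minimum fold, and 11 under the correction with or without the block. Over all genes, 1075 were higher and 1217 lower without trend, 1074 and 833 with a minimum fold, and 1018 higher under the correction (1041 with the block).

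The plan did not set the form of the correction. All 3 forms were run after the main results were known, and the 2 of degree 2 were added alternatives chosen after seeing the data. Least squares of degree 2 gave 1028 genes higher and 2015 lower, 4 members higher and 3 lower, and 7 other pathway genes higher and 11 lower. Robust fitting of degree 2 gave 1329 and 1425 genes, 5 and 2 members, and 9 and 9 other pathway genes, and Rela stayed called while Irf1 did not. Ifitm3 turned to a positive value in all of them, 0.35 at degree 1 (0.35 with the block) and 0.36 at degree 2 in both fits.

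Same-numbered lines did not deviate together over the genes as a whole (coefficients 0.001, -0.005 and -0.003). Pairing that touches few genes would not show in these coefficients. The paper states that the data come from 3 independent experiments, and whether the numbers follow them is not known. The replicate block gave 6 members higher and 3 lower, adding Nfkb1. With values below the filter included, Oasl1 and Zbp1 were called while Tank, Traf3 and Irf1 were not. Values under about 10 normalized counts limit what can be read.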
